A study of Mus musculus with 17 samples.

Results

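Kcnj2 encodes Kir2.1, an inward-rectifier potassium channel, and lies next to Kcnj16 and Sox9 on mouse chromosome 11. The genes described here were a fixed list of 10 Kcnj genes: Kcnj2, Kcnj16, Kcnj12, Kcnj4, Kcnj8, Kcnj11, Kcnj15, Kcnj10, Kcnj3 and Kcnj6. All 10 were found by symbol among the 34682 genes of the count table and in the table of FPKM values (fragments scaled by transcript length and library size). The other 5 genes of the Kir family (Kcnj1, Kcnj5, Kcnj9, Kcnj13 and Kcnj14) were read beside them. The question was which of these channels the embryonic limb expresses, and whether any besides Kcnj2 differs between genotypes with a rearranged Sox9-Kcnj locus.

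PolyA RNA was sequenced from snap-frozen mouse limb buds at E12.5. Wild-type (WT) had 4 libraries, the duplication Dup-C 2, the duplication Dup-L 2, Dup-L∆Bor 4, the boundary deletion ∆Bor in heterozygous form (∆Bor het) 2 and in homozygous form (∆Bor hom) 1. Dup-L∆Bor combines the Dup-L duplication with the ∆Bor deletion, which removes the boundary between the topological domains of Sox9 and of the Kcnj genes; the Dup-C duplication, as the study of these alleles describes it, also contains Kcnj2. The labels give neither the zygosity of the duplications nor the strain, the limb taken or whether replicates were separate embryos, so the p-values reflect variation among these libraries, whether biological or technical. Totals ran from 34486256 to 53711742 counts per library. The labels list 17 samples, and the 2 of fingertips are not analysed here. The 4 Dup-L∆Bor columns, named R2 to R5, carry another genotype name that joins a duplication and a deletion, and could not be matched one by one to the labels. R4 and R5 carry the same library number. Their counts differed beyond sampling noise, with a chi-square per degree of freedom of 27.3 over genes against 6.28 to 96.2 in the other pairs of libraries of a genotype, so they were kept as 2 libraries. The 8 limb mesenchyme markers, among them Prrx1 and Twist1, summed to between 1700 and 2126 counts scaled to library size (CPM) in every library.

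Inward rectifiers pass potassium into the cell more readily than out of it, and so hold the resting membrane potential near the potassium equilibrium. The Kir2 channels (Kcnj2, Kcnj12, Kcnj4 and Kcnj14) rectify strongly. Kcnj3, Kcnj5, Kcnj6 and Kcnj9 encode G protein-gated channels, Kcnj8 and Kcnj11 the pore of ATP-sensitive channels, and Kcnj10, Kcnj15 and Kcnj16 channels of epithelia and glia. Loss of KCNJ2 function in humans causes Andersen-Tawil syndrome, in which periodic paralysis and arrhythmia go with anomalies of the digits and face.

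The upstream sequences of Kcnj2 and of its neighbour Kcnj16 are shown because the 2 genes share a locus and an orientation but differed most in level. Both are the 250 bases before an annotated start in RefSeq (GRCm38.p6, a later build than the mm9 of the reads), on the plus strand, with CpG dinucleotides in capitals. The Kcnj2 window is chr11:111065914-111066163 and the Kcnj16 window, before the annotated start nearest to Kcnj2 of 4, is chr11:111023610-111023859.
Kcnj2: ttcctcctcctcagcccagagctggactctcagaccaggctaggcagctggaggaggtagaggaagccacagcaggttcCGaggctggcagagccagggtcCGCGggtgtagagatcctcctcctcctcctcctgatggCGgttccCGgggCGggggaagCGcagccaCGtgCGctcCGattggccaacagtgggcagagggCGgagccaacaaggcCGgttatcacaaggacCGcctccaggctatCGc
Kcnj16: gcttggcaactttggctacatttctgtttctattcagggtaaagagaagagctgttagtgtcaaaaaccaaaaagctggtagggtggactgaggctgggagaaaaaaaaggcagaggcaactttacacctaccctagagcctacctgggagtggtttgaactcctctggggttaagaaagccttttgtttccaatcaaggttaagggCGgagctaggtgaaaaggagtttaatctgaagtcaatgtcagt
The Kcnj2 window held 14 CpG and was 65.6% G or C, and the Kcnj16 window held 1 CpG and was 44.8% G or C. Over 32851 windows of the same length in the annotation the medians were 6 CpG and 52.4%, and 70.6% of windows had fewer CpG than that of Kcnj2. The motif GGGCGG, searched on both strands, occurred 2 times before Kcnj2 and 1 time in the Kcnj16 window, and 32.7% of all windows held it. TATAAA, searched on both strands, occurred in neither window and in 12.4% of all windows. The other 3 Kcnj16 windows held 3 to 7 CpG. Windows were found for 13 of the 15 Kir genes. Those of Kcnj4 (35 CpG) and Kcnj10 (17), and 1 of those of Kcnj6 (26), held more CpG than that of Kcnj2, though these genes were scarce. The remaining windows held 1 to 7 CpG, with 1 in that of Kcnj15. A link between these windows and the level of the genes was not tested.

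Kcnj2 was the main inward rectifier of these limb buds in every genotype. On the FPKM scale, which is per transcript length and so allows genes to be compared, its mean level over the 15 libraries was 7.21, against 0.643 for the next gene, Kcnj15. The other 14 Kir genes all had mean FPKM under 1. In descending order after Kcnj15 they were Kcnj14 at 0.585, Kcnj8 at 0.469, Kcnj13 at 0.385, Kcnj11 at 0.193, Kcnj3 at 0.181, Kcnj5 at 0.163 and Kcnj4 at 0.104. The last 6 (Kcnj9, Kcnj10, Kcnj12, Kcnj6, Kcnj1 and Kcnj16) were at or below 0.026. Of the genes other than Kcnj2, Kcnj8 alone reached an FPKM of 1 in any library, in WT 3 (1.07) and WT 4 (1.48). The means above pool WT with the mutants. In WT alone the mean of Kcnj2 was 3.59 FPKM, against 0.8625 for the next gene there, Kcnj8.

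**Figure D1:**
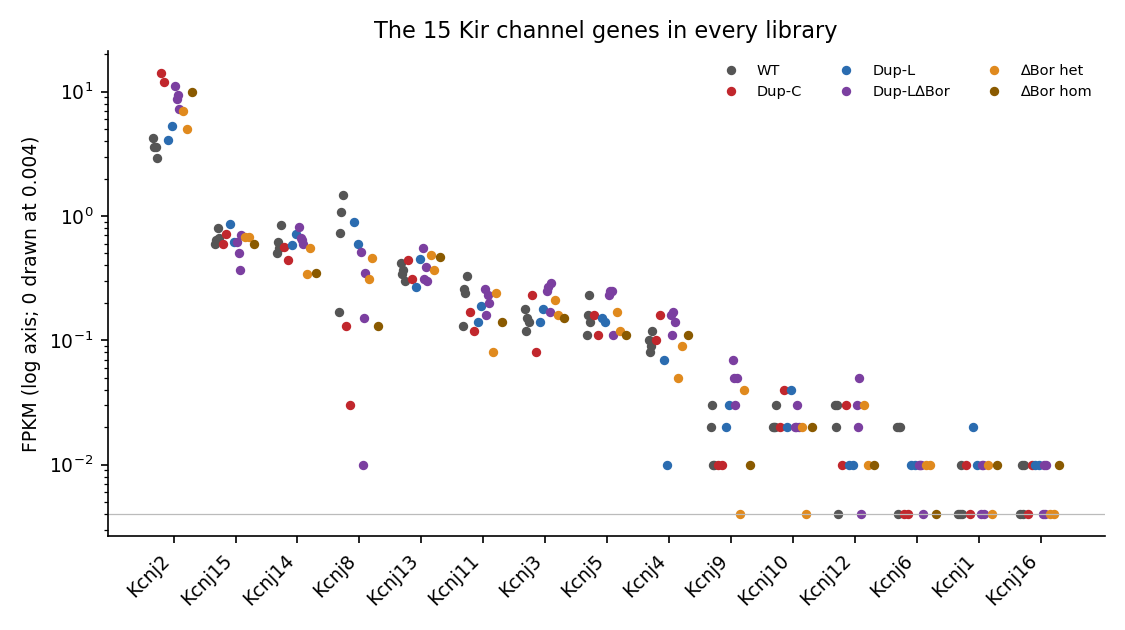
FPKM (log axis) of the 15 Kir genes, ordered by mean level; each point is 1 library, coloured by genotype, and values of 0 are drawn on the grey line at 0.004. Kcnj2 sits above all others in every library, from 2.91 to 14.16, and most of the others lie below 1.

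Kcnj2 made up the largest share of the summed FPKM of the 15 Kir genes in each library. In WT this share ran from 41.57 to 64.98%, and in Dup-L it was 55.91 and 63.79%, inside the WT range. It was 85.3 and 85.37% in Dup-C, 72.27 to 78.85% in Dup-L∆Bor, 64.91 and 74.58% in ∆Bor het, and 82.34% in ∆Bor hom. Summed FPKM compares levels of RNA, not of channels at the membrane.

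Kcnj2 was lowest in WT and highest in Dup-C. Its level in the 4 WT libraries was 26.2, 21.7, 22.2 and 17.6 CPM. In Dup-C it was 87.7 and 75.2 CPM, and in Dup-L 25.3 and 33.4 CPM. In Dup-L∆Bor it was 69.4, 55.2, 58.4 and 45.7 CPM (R2 to R5), in ∆Bor het 44.5 and 30.4 CPM, and in ∆Bor hom 63.0 CPM. The Dup-C, Dup-L∆Bor, ∆Bor het and ∆Bor hom libraries were all above the highest WT library, whereas the Dup-L libraries overlapped WT.

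**Figure D2:**
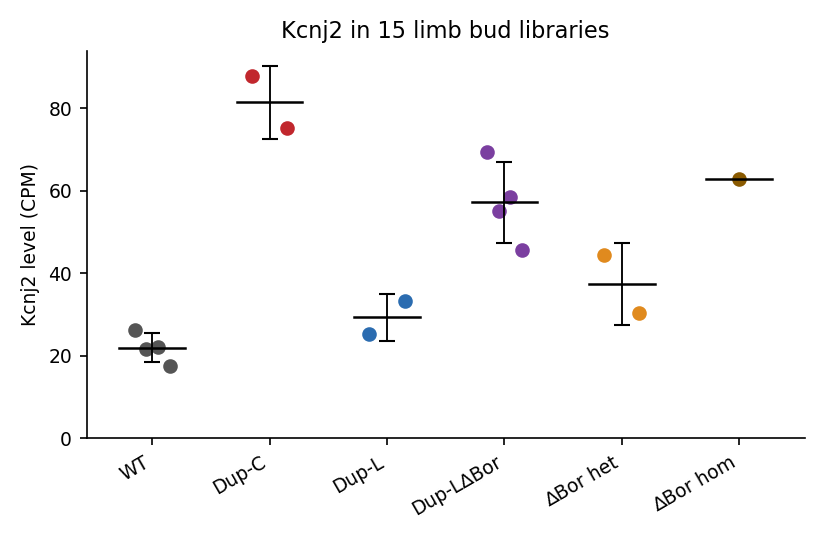
Kcnj2 level (CPM) in the 15 libraries by genotype; points are libraries, horizontal lines the genotype means and bars the SD (∆Bor hom has 1 library). The 2 Dup-C libraries, at 87.7 and 75.2 CPM, lie above all others, and the Dup-L pair overlaps the 4 WT libraries.

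Kcnj2 rose 3.71-fold in Dup-C, from 21.9 ± 3.51 CPM in WT (SD, n = 4) to 81.5 ± 8.86 CPM (SD, n = 2). The log2 fold change was 1.89 with a standard error (SE) of 0.18 and an adjusted p of 7.177e-04 (edgeR quasi-likelihood test, Benjamini-Hochberg over the 17655 genes tested, threshold 0.05). Kcnj2 was the 1 gene called in that comparison, 0.00566% of genes. The estimate was 1.76 with an adjusted p of 0.124 when only the libraries of the first range of library numbers in the column headers entered, which hold WT 1 and 2.

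In Dup-L∆Bor Kcnj2 rose 2.61-fold over WT, to 57.2 ± 9.77 CPM (SD, n = 4), with a log2 fold change of 1.38 (SE 0.16, edgeR adjusted p = 5.223e-04). In this comparison 3.85% of all genes were called. The rise was called under all 28 alternatives tried, at 1.13 to 1.54, and it was 1.52 within the second header range (adjusted p = 0.00548), which holds WT 3, WT 4 and all Dup-L∆Bor libraries.

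The boundary deletion alone went with higher Kcnj2 too. In ∆Bor hom, whose lone library takes its spread from the remaining genotypes in the fit, it was 2.87-fold higher (log2 1.52, SE 0.22, edgeR adjusted p = 0.010), where 1.27% of genes were called. In ∆Bor het it reached 37.5 ± 9.96 CPM (SD, n = 2), 1.71-fold above WT (log2 0.77, SE 0.19, edgeR adjusted p = 0.043), where 4.03% of genes were called. Leaving out 1 library at a time, the ∆Bor het call was lost without WT 3, WT 4, either Dup-C library, either Dup-L library, Dup-L∆Bor R2, R3 or R4, or ∆Bor het 1, at adjusted p of 0.0518 or more. Without ∆Bor het 1 the log2 value was 0.47 (adjusted p = 0.603). Within the first header range it was 0.63 (adjusted p = 0.285). The ∆Bor hom call was lost with the header range as a term in the model (1.40, adjusted p = 0.0598), within the first range (1.35, adjusted p = 0.0872) and with offsets for GC content and length (1.21, adjusted p = 0.0583).

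In Dup-L Kcnj2 was at 29.3 ± 5.75 CPM (SD, n = 2), 1.34-fold the WT mean, and did not pass the test (log2 0.42, SE 0.19, edgeR adjusted p = 0.104). The interval of 2 SE on either side ran from 0.04 to 0.80. A large share of all genes, 32.4%, was called in that comparison. It passed under none of the 29 alternatives tried. The value was 0.61 without Dup-L 1 and 0.21 without Dup-L 2, 0.63 with Pitx1 as a covariate (adjusted p = 0.141), 0.26 within the first header range and -0.02 with the GC and length offsets. Pitx1, a transcription factor of the hindlimb, was at 0.518 and 0.677 CPM in the Dup-L libraries. WT 2 and WT 4 had 1.83 CPM each, and the other 11 libraries were between 39.9 and 116 CPM. All Dup-C, Dup-L∆Bor and ∆Bor libraries were among those 11, so every comparison with WT or with Dup-L is unbalanced in Pitx1. The part of limb type in these comparisons was not tested.

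Against Dup-L, Kcnj2 was 1.95-fold higher in Dup-L∆Bor (log2 0.96, SE 0.20, edgeR adjusted p = 0.00146) and 2.78-fold higher in Dup-C (log2 1.47, SE 0.22, edgeR adjusted p = 0.00906). These comparisons called 43.6 and 15.1% of all genes. Dup-L∆Bor and Dup-L lie in different header ranges, and with the range as a term the first value was 1.22 (adjusted p = 0.0232). Dup-C and Dup-L lie in the same range, within which the second was 1.499 (adjusted p = 0.0176). With Pitx1 as a covariate the values were 0.64 (adjusted p = 0.205) and 1.13 (adjusted p = 0.981), and neither passed. Pitx1 was low in both Dup-L libraries and high in all Dup-C and Dup-L∆Bor libraries, so genotype and Pitx1 level coincide in these pairs. The Dup-C value also missed the threshold when either Dup-C or either Dup-L library was left out, with adjusted p from 0.0524 to 0.113 and log2 values from 1.29 to 1.70.

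The order of the genotype means was Dup-C, ∆Bor hom, Dup-L∆Bor, ∆Bor het, Dup-L and WT. Of the 15 pairs of genotypes 7 passed the threshold. Pairs differed in the share of genes called, for example 0.0793% in ∆Bor het against Dup-L and 43.6% in Dup-L∆Bor against Dup-L. The adjusted p depends on that share as well as on Kcnj2. ∆Bor het was below Dup-C by a log2 value of -1.12 and did not pass (SE 0.22, edgeR adjusted p = 0.0882, 0.102% of genes called). ∆Bor hom, above Dup-L by 1.10 (SE 0.26), did not pass either. Among neighbours in that order, ∆Bor het was below Dup-L∆Bor (log2 -0.61, SE 0.19, edgeR adjusted p = 0.0269; 32% of genes were called in that pair), and the other 4 pairs of neighbours did not pass. The difference of ∆Bor hom from Dup-C was -0.37 (interval of 2 SE from -0.91 to 0.17), and that of ∆Bor hom from Dup-L∆Bor 0.14 (from -0.34 to 0.62). Dup-L∆Bor stood at -0.51 from Dup-C (adjusted p = 0.0593), with no overlap of their libraries. The level in ∆Bor hom exceeded that in ∆Bor het by 0.75 (SE 0.26), which was unadjusted p = 0.0121 in edgeR and 0.999 after adjustment. ∆Bor het and Dup-L overlapped and differed by 0.35 (from -0.09 to 0.79).

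Kcnj16, the nearest Kir gene and part of the same locus, was at the limit of detection. It had 0 to 3 counts in each library and 15 in all, and both ∆Bor het libraries had 0, which allows up to 0.0794 and 0.0784 CPM. The Dup-C libraries had 0 and 1 counts and the Dup-L∆Bor libraries 0, 2, 1 and 1. It did not pass the filter on low counts and was not tested. Its exact Poisson 95% upper limit, for counting error only, was 0.063 CPM in Dup-C and 0.0595 CPM in Dup-L∆Bor, against a mean of 0.0252 CPM in WT. A fall from the WT level was not detectable at this depth. Map2k6, the next coding gene beyond Kcnj16, had log2 values from 0.12 to 0.34 against WT, with edgeR adjusted p of 0.166 or more. Sox9, on the other side of Kcnj2, had log2 values from -0.09 to 0.34 against WT, with edgeR adjusted p of 0.143 or more. Slc39a11, also listed as a neighbour, was not called in the 7 comparisons (values from -0.17 to 0.15, edgeR adjusted p of 0.209 or more). 2610035D17Rik, another gene on that list, rose over WT by 0.57 in Dup-L∆Bor (edgeR adjusted p = 0.0363) and by 0.46 in Dup-L (adjusted p = 0.0428), calls lost in 13 of 28 and 18 of 29 alternatives. BC006965 was lower in Dup-L∆Bor than in Dup-L (log2 -0.99, edgeR adjusted p = 0.0449), a call lost in 16 of 27 alternatives, over which its values ran from -1.26 to 0.57.

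Among the other tested members, 1 of 49 comparisons (7 genes in 7 comparisons) passed the threshold, that of Kcnj4 in Dup-L∆Bor against Dup-L, where 43.6% of all genes were called. Over all genes the share called against WT was 0.00566% in Dup-C, 32.4% in Dup-L, 3.85% in Dup-L∆Bor, 4.03% in ∆Bor het and 1.27% in ∆Bor hom, and it was 15.1% in Dup-C against Dup-L. In the 5 comparisons with WT none did, with 4 at an unadjusted p under 0.05 in edgeR. DESeq2 called none with or without its mean filter. The filtered run says little in Dup-C, where it gave even Kcnj2 no adjusted p. Of the 10 members 8 passed the filter on low counts, and Kcnj16 and Kcnj6 did not. The members called were Kcnj2 against WT in all mutants but Dup-L, where none was, and Kcnj2 against Dup-L in Dup-C. In Dup-L∆Bor against Dup-L both Kcnj2 and Kcnj4 were called. The median log2 change of the 7 members other than Kcnj2 was -0.01 in Dup-C, -0.15 in Dup-L, 0.06 in Dup-L∆Bor, -0.43 in ∆Bor het and -0.32 in ∆Bor hom against WT. Over all genes tested the medians lay between -0.03 and 0.

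**Figure D3:**
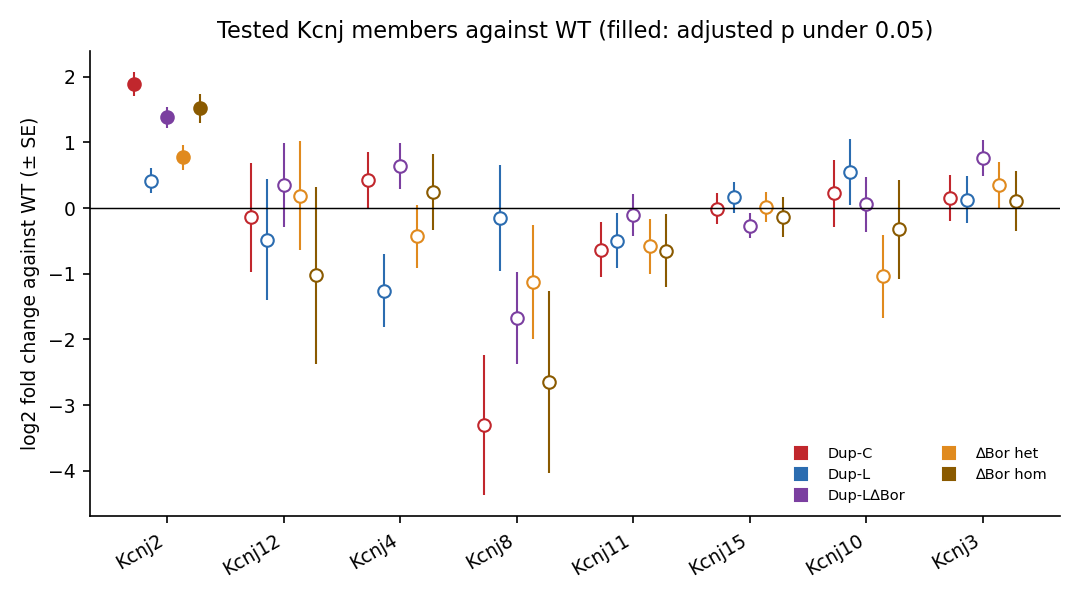
Log2 fold change against WT of the 8 tested Kcnj members, with the SE as bars, coloured by genotype; filled points have an adjusted p under 0.05 and open points do not. The 4 filled points are all of Kcnj2, from 0.77 to 1.89, and the widest bars belong to Kcnj8, Kcnj12 and Kcnj10.

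The other Kir2 channels were scarce. Kcnj4, which encodes Kir2.3, had 13, 11, 11 and 10 counts in WT, 12 and 15 in Dup-C and 6 and 1 in Dup-L. It had 19, 10, 21 and 13 counts in Dup-L∆Bor, 5 and 8 in ∆Bor het and 10 in ∆Bor hom. In CPM both Dup-L libraries were below all WT and all Dup-L∆Bor libraries. Kcnj4 rose in Dup-L∆Bor over Dup-L by 1.90 on the log2 scale (SE 0.53, edgeR adjusted p = 0.00993), from 0.0953 ± 0.0965 CPM (SD, n = 2) to 0.359 ± 0.0703 CPM (SD, n = 4). Without Dup-L 2, the library with 1 count, the value was 1.12 (adjusted p = 0.156), and without Dup-L 1 it was 3.61 (adjusted p = 0.00689). It also missed the threshold with the header range as a term (1.80, adjusted p = 0.122), with Pitx1 as a covariate (1.92, adjusted p = 0.147) and with the GC and length offsets (1.35, adjusted p = 0.0743). Against WT its log2 value in Dup-L was -1.26 (adjusted p = 0.0943), which without Dup-L 1 was -2.97 (adjusted p = 0.0364).

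Kcnj12, which encodes Kir2.2, had 0 to 14 counts per library and passed in no comparison. Its intervals were wide, for example from -1.81 to 1.53 on the log2 scale in Dup-C against WT. Kcnj14, which encodes Kir2.4 and is not on the fixed list, had 39 to 120 counts. Its lowest values, 39 counts each, were in ∆Bor het 1 and ∆Bor hom, and its log2 value in ∆Bor hom was -0.78 (SE 0.36, edgeR adjusted p = 0.181).

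Kcnj8 varied widely between libraries of a genotype. It encodes Kir6.1, the pore of the ATP-sensitive channel of vascular smooth muscle and pericytes. Its counts were 22, 98, 139 and 130 in WT, 16 and 3 in Dup-C, and 82 and 56 in Dup-L. They were 62, 1, 18 and 34 in Dup-L∆Bor, 30 and 43 in ∆Bor het and 12 in ∆Bor hom. In CPM, WT ran from 0.425 to 3.61 and Dup-C had 0.312 and 0.0806, so the Dup-C libraries were below all WT libraries. The mean in Dup-C was 0.196 ± 0.164 CPM (SD, n = 2) against 2.11 ± 1.35 CPM (SD, n = 4) in WT, a log2 value of -3.31 with an SE of 1.06. This did not pass (edgeR adjusted p = 0.251). Without WT 1, the WT library with 22 counts, it was -3.65 and passed (adjusted p = 0.0314), the 1 alternative of 28 in which it did. The fold depended on single libraries: without Dup-C 1 the value was -4.65 (adjusted p = 0.219) and without Dup-C 2, the library with 3 counts, -2.74 (adjusted p = 0.988). It was -2.92 without WT 4, -2.26 with the replicate block, -2.38 with the header range as a term and -2.87 with Pitx1 as a covariate (adjusted p of 0.417 or more).

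Against Dup-L, Kcnj8 in Dup-C was at -3.15 on the log2 scale (SE 1.15, edgeR adjusted p = 0.0807). It passed in 6 of 29 alternatives. These were DESeq2 (-3.22, adjusted p = 0.0434), the fit within the first header range (-3.13, adjusted p = 0.0263), the replicate block (-3.11, adjusted p = 0.0432), the 2 groups alone (-3.11, adjusted p = 0.00143), and the fits without WT 1 (adjusted p = 0.0391) or Dup-L∆Bor R3 (adjusted p = 0.0436). Leaving out any library of the 2 groups it did not pass, at -4.49 without Dup-C 1, -2.57 without Dup-C 2, -2.85 without Dup-L 1 and -3.40 without Dup-L 2 (adjusted p from 0.162 to 0.295). In DESeq2 without its mean filter the adjusted p was 0.0682. With Pitx1 as a covariate it was -2.20 (adjusted p = 0.981). In ∆Bor hom the log2 value against WT was -2.65 (SE 1.38, adjusted p = 0.240) and in Dup-L∆Bor -1.67 (SE 0.70, adjusted p = 0.174).

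In bulk tissue, fewer cells of a type and less RNA per cell cannot be told apart. Of 8 pericyte and mural markers, none was at 0 in any genotype. Against WT their median log2 fold change was -0.65 in Dup-C, -0.57 in Dup-L, -0.03 in Dup-L∆Bor, -0.41 in ∆Bor het and -0.93 in ∆Bor hom. Their summed level was 535 to 652 CPM in WT, 451 to 472 in Dup-C, 350 to 356 in Dup-L, 565 to 726 in Dup-L∆Bor, 392 to 493 in ∆Bor het and 375 in ∆Bor hom. The summed level was lowest in Dup-L, with Kcnj8 at 1.52 and 2.23 CPM. The median change was lowest in ∆Bor hom, with Kcnj8 at 0.330 CPM. Abcc9 encodes the sulfonylurea receptor that pairs with Kir6.1 and is the gene next to Kcnj8. It was at 4.42, 6.87, 5.35 and 6.44 CPM in WT and at 3.74 and 3.84 CPM in Dup-C. In Dup-L∆Bor R3, with 1 Kcnj8 count, Abcc9 was at 6.08 CPM, within the WT range. The part of these cells in the Kcnj8 values was not tested.

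**Figure D4:**
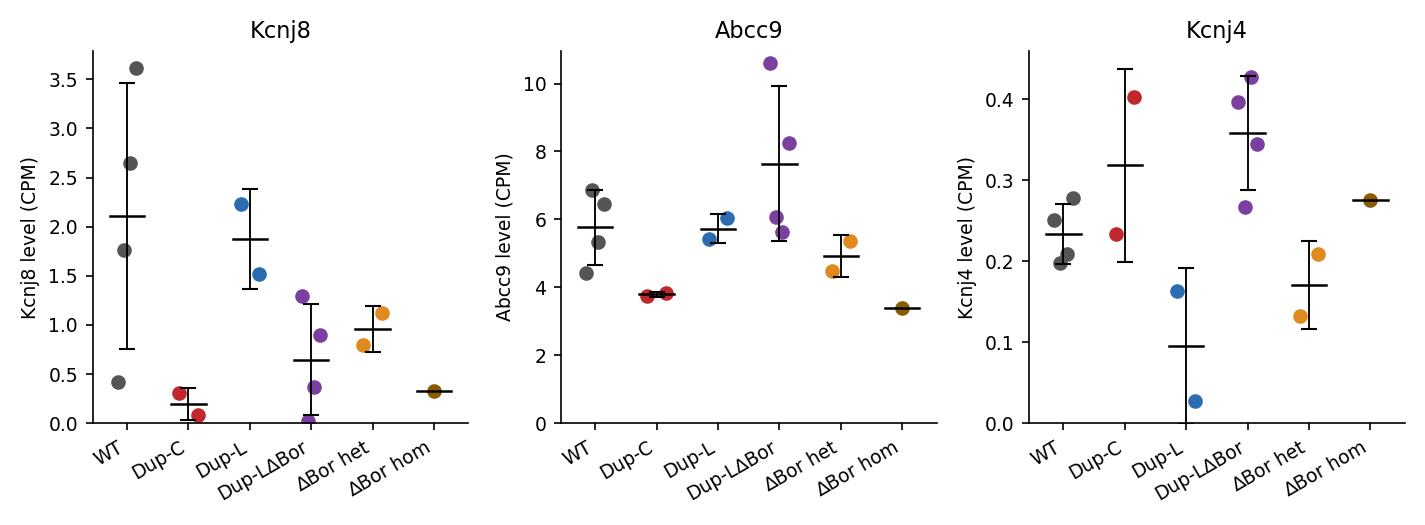
Levels (CPM) of Kcnj8, its neighbour and partner Abcc9, and Kcnj4 in the 15 libraries by genotype; points are libraries, horizontal lines means and bars the SD. Kcnj8 ranges from 0.425 to 3.61 CPM among the WT libraries alone, and Kcnj4 is below 0.5 CPM throughout.

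Kcnj11, which encodes Kir6.2, the pore of the pancreatic and neuronal ATP-sensitive channel, had 11 to 52 counts per library and no call. Its log2 values against WT lay between -0.65 in ∆Bor hom and -0.10 in Dup-L∆Bor. Abcc8, its sulfonylurea receptor and chromosomal neighbour, rose in Dup-L∆Bor over Dup-L by 1.33 on the log2 scale (SE 0.28, edgeR adjusted p = 0.00165), from 0.571 to 1.44 CPM, a call lost in 3 of 27 alternatives.

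Kcnj15, which encodes Kir4.2, was the second most abundant Kir gene by mean FPKM over the 15 libraries. In WT alone Kcnj8 had the higher mean, 0.8625 FPKM against 0.675 for Kcnj15. Kcnj15 had 118 to 269 counts per library, and its means ran from 3.56 ± 0.953 CPM (SD, n = 4) in Dup-L∆Bor to 4.78 ± 1.10 CPM (SD, n = 2) in Dup-L. Against WT the log2 value was -0.01 in Dup-C (interval of 2 SE from -0.48 to 0.46) and -0.27 in Dup-L∆Bor (from -0.65 to 0.12), and neither interval holds the Kcnj2 value of the same comparison. Kcnj10, the glial and renal Kir4.1, had 1 to 10 counts per library and no call.

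Of the G protein-gated channels, Kcnj3 had the highest mean FPKM over the 15 libraries, with 19 to 72 counts per library. It was at 0.868 ± 0.172 CPM (SD, n = 4) in WT and 1.48 ± 0.315 CPM (SD, n = 4) in Dup-L∆Bor, a log2 value of 0.76 (SE 0.28) that did not pass (edgeR adjusted p = 0.119). The 2 groups overlapped, since Dup-L∆Bor R4 was at 1.04 CPM and WT 1 at 1.08 CPM. Kcnj6 had 8, 2, 7 and 5 counts in WT, 3 and 2 in Dup-L, 3 and 2 in ∆Bor het, 2, 2, 3 and 0 in Dup-L∆Bor, and 0 in both Dup-C libraries and in ∆Bor hom. It was not tested. A count of 0 allows up to 0.0585 and 0.0806 CPM in the Dup-C libraries. WT 2, at 0.0359 CPM, was below both limits, and the other 3 WT libraries, at 0.154, 0.133 and 0.139 CPM, were above them. Over the summed counts of each genotype, the exact Poisson 95% upper limit in Dup-C, 0.0417 CPM, was below the lower limit in WT, 0.0703 CPM, for counting error only.

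None of the 4 tested Kir genes outside the fixed list (Kcnj5, Kcnj9, Kcnj13 and Kcnj14) was called by edgeR in the 7 comparisons. Of their results 2 had an unadjusted p under 0.05, and DESeq2 called none with or without its mean filter. Those comparisons called from 0.00566 to 43.6% of all genes. Kcnj5 had 21 to 64 counts, Kcnj13 15 to 41, Kcnj9 0 to 14 and Kcnj1, which was not tested, 0 to 3. In the GRCm38 annotation, Kcnj13 overlaps exons of Gigyf2 on the opposite strand, and Kcnj3, Kcnj6, Kcnj9 and Kcnj15 each overlap an exon of a gene model on the other strand. The sources used here do not say whether counting used strand, so reads of these pairs cannot be told apart.

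Kcnj2 also stood high among all potassium channels. Of 77 pore-forming potassium channel genes, it ranked first by FPKM in both Dup-C libraries, all 4 Dup-L∆Bor libraries, ∆Bor hom and ∆Bor het 1. In the other ∆Bor het library and both of Dup-L it ranked second, after the two-pore leak channel gene Kcnk1. In WT its rank was 3 in 3 libraries and 4 in WT 4. Kcnk1 led all 4 WT libraries at 5.69 to 7.19 FPKM, and Kcnj2 was at 2.91 to 4.25 there. The voltage-gated channel gene Kcna6 had a mean of 3.83 FPKM over all libraries.

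**Figure D5:**
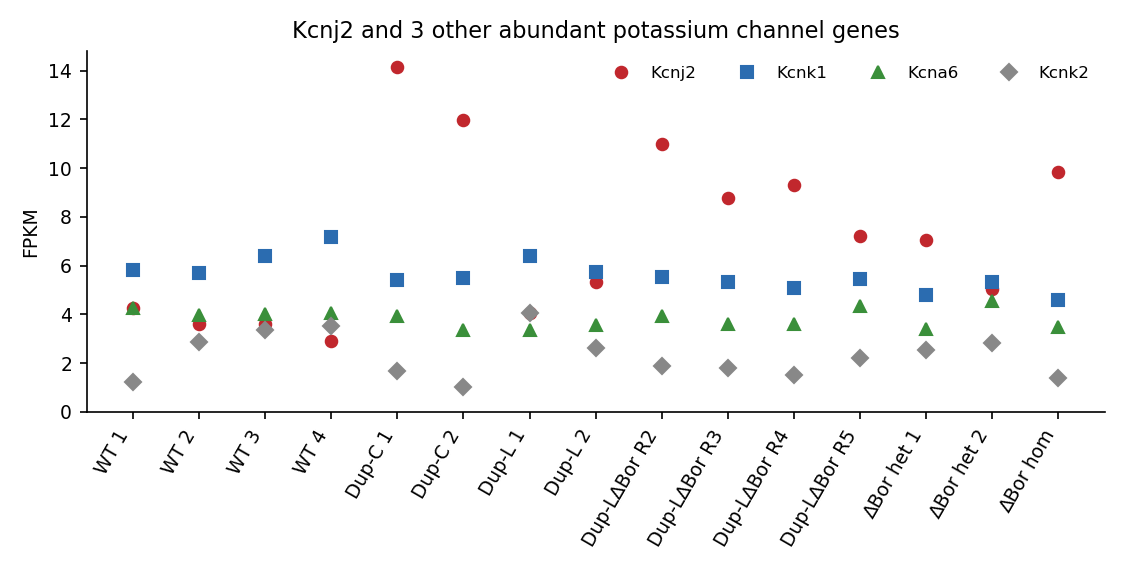
FPKM of Kcnj2 and of Kcnk1, Kcna6 and Kcnk2, other abundant potassium channel genes, in each of the 15 libraries. Kcnk1 is highest in every WT library, and Kcnj2 is highest in the Dup-C, Dup-L∆Bor and ∆Bor hom libraries, where it reaches 14.16 FPKM.

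The wider potassium channel lists, with the partners of Kir channels, held 107 genes, of which 89 were tested. None was called by edgeR in Dup-C against WT, where 0.00566% of all genes were. In that comparison 22 had an unadjusted p under 0.05 in edgeR, and the median log2 value of the 89 was -0.19. DESeq2 called none of the 89 with its mean filter, which left even Kcnj2 without an adjusted p there. Without that filter it also called none. In ∆Bor het 1 rose (1.12%, against 4.03% of all genes), Kcnip4, a modulator of A-type channels (log2 0.72, SE 0.18, edgeR adjusted p = 0.0439), a call lost in 22 of 29 alternatives. In ∆Bor hom 1 rose (1.12%, against 1.27% of all genes), Kcnmb4, a beta subunit of the large-conductance calcium-activated channel (log2 1.12, SE 0.19, edgeR adjusted p = 0.0253), a call lost in 8 of 27. DESeq2 called 8 and 11 of these genes there. In Dup-L∆Bor against WT 6 rose and 1 fell, 7.87% of those tested, where 3.85% of all genes were called. In Dup-L against WT 9 rose and 6 fell (16.9%, against 32.4% of all genes). Dup-L∆Bor against Dup-L had 18 higher and 14 lower (36%, against 43.6% of all genes), and Dup-C against Dup-L 2 higher and 10 lower (13.5%, against 15.1%).

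The largest of these changes against WT was that of Kcne3, an auxiliary subunit of voltage-gated channels. It was at 7.45, 6.62, 6.45 and 7.39 CPM in WT and at 25.3, 16.6, 11.3 and 26.1 CPM in Dup-L∆Bor, with no overlap. Its log2 change was 1.51 (SE 0.21, edgeR adjusted p = 0.00366), and it was 1.52 within the second header range, where the adjusted p was 0.163. Kcnt1, a sodium-activated channel, rose by 1.08 (adjusted p = 0.0329), Kcnn1, a small-conductance calcium-activated channel, by 0.65 (adjusted p = 0.0431) and Kcnmb4 by 0.53 (adjusted p = 0.0431) in the same edgeR fit. Dlg4 and Dlg3, whose products are scaffold proteins that bind Kir2 channels, rose by 0.52 (edgeR adjusted p = 0.0239) and 0.30 (edgeR adjusted p = 0.0256). Kcna2, a voltage-gated channel, fell by 1.04 (edgeR adjusted p = 0.0357). Over 26 to 28 alternatives, the Kcne3 call was lost in 1, that of Dlg4 in 8, Dlg3 in 9, Kcna2 in 12, Kcnt1 in 13, Kcnmb4 in 17 and Kcnn1 in 18.

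By list, the 31 tested voltage-gated channels had 1 lower (Kcna2) in Dup-L∆Bor against WT and 1 lower in Dup-L. In Dup-C edgeR called none, with 7 at an unadjusted p under 0.05 and none called by DESeq2 with or without its mean filter. In ∆Bor het and hom edgeR also called none, with 4 and 7 at an unadjusted p under 0.05 and 1 each called by DESeq2. Of the 7 tested two-pore channels edgeR called none against WT in any genotype, with 9 results at an unadjusted p under 0.05 and 1 called by DESeq2. Beside the counts of both lists, the share of all genes called against WT was 0.00566% in Dup-C, 32.4% in Dup-L, 3.85% in Dup-L∆Bor, 4.03% in ∆Bor het and 1.27% in ∆Bor hom. By FPKM the voltage-gated list was led by Kcna6, and Kcnd2 was at 1.49. Between Dup-C and Dup-L, Kcnd3 was lower in Dup-C by a log2 value of -1.53, Kcna2 by -1.49 and Kcnk2 by -1.30, calls lost in 5 of 29, 6 of 27 and 18 of 29 alternatives. The highest two-pore genes after Kcnk1 (5.62 FPKM on average) were Kcnk2 at 2.30 and Kcnk5 at 2.05. Of the 8 calcium- and sodium-activated channels 2 rose in Dup-L∆Bor against WT (3.85% of all genes called), and 4 in Dup-L∆Bor against Dup-L (43.6%), among them Kcnt1 by 1.62, Kcnn1 by 1.54 and Kcnn4 by 1.23. The last 3 calls were lost in 1, 1 and 5 of 27 alternatives. The most abundant of that list were Kcnn1 at 1.91 FPKM, Kcnt2 at 1.08 and Kcnma1 at 0.865. Of the 14 auxiliary subunits 2 rose in Dup-L∆Bor against WT, and the list was led by Kcne1l at 7.17 FPKM, Kcne3 at 5.47 and Kcnab1 at 3.06. Kcne4 was lower in Dup-C than in Dup-L, with a log2 value of -1.93 (SE 0.45, edgeR adjusted p = 0.0159), a call lost in 5 of 29 alternatives.

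Of the 15 scaffold and membrane partners of Kir2, 4 rose and 2 fell in Dup-L against WT, where 32.4% of all genes were called. In Dup-L∆Bor 2 rose (3.85% of all genes called). In Dup-C, ∆Bor het and ∆Bor hom against WT edgeR called none (0.00566, 4.03 and 1.27% of all genes). There 5, 4 and 4 had an unadjusted p under 0.05. DESeq2 called 0, 3 and 4 of the list, and 0, 0 and 1 without its mean filter. The most abundant were Flna at 178 FPKM, Lin7c at 21.4 and Dlg4 at 18.7. Dlg4 was also higher in Dup-L∆Bor than in Dup-L (log2 1.04), a call lost in 1 of 27 alternatives. Lin7a (-1.25) and Dlg2 (-1.12) were lower in Dup-C than in Dup-L, calls lost in 7 and 8 of 29. The 12 genes of PIP2 synthesis and G protein gating had none called by edgeR against WT except in Dup-L, where 4 rose and 2 fell beside 32.4% of all genes called. In the other 4 mutants, with 0.00566 to 4.03% of all genes called, 2, 3, 5 and 6 had an unadjusted p under 0.05 (Dup-C, Dup-L∆Bor, ∆Bor het, ∆Bor hom). DESeq2 called 0, 0, 3 and 2 there, and 0, 0, 2 and 0 without its mean filter. PIP2 is the membrane lipid that Kir channels need to open. Gnb1 at 180 FPKM, Gnai2 at 163 and Gng5 were the most abundant of this list, and Gnb4 was lower in Dup-C than in Dup-L (log2 -1.09, lost in 7 of 29 alternatives). Gnai2 and Pip5k1c were higher in Dup-L∆Bor than in Dup-L, by 1.07 and 0.90 on the log2 scale (edgeR adjusted p = 2.055e-04 and 7.575e-05), calls lost in 2 and 1 of 27 alternatives. The sulfonylurea receptor genes Abcc9 and Abcc8 averaged 0.603 and 0.191 FPKM. Neither was called against WT by edgeR, or by DESeq2 with or without its mean filter, with 5 results at an unadjusted p under 0.05.

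The genes most like Kcnj2 over the 15 libraries were found by the root mean square difference of log2 CPM, each gene centred on its WT mean. Lin28b was closest at 0.528, before AK085609_gene (0.544), D030045P18Rik (0.549), AK078566_gene (0.559) and Tmem30b (0.606). The median over tested genes was 1.17, and Kcnj2 itself had a root mean square of 1.13 about its WT mean. Lin28b had log2 values against WT of 0.99 in Dup-C, -0.03 in Dup-L, 0.72 in Dup-L∆Bor, 0.59 in ∆Bor het and 1.40 in ∆Bor hom, none past the threshold. Tmem30b passed in Dup-L∆Bor (0.575, edgeR adjusted p = 0.0465), ∆Bor het (0.671, adjusted p = 0.0473) and ∆Bor hom (1.21). D030045P18Rik passed in ∆Bor het (0.996, edgeR adjusted p = 0.0459) and ∆Bor hom (2.16). AK085609_gene passed in Dup-L∆Bor (1.15, edgeR adjusted p = 0.03), and AK078566_gene in none. These likenesses describe 15 libraries that share genotypes, limb composition and depth.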

How the data were processed

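Gene counts and FPKM values of 15 limb bud libraries were analysed. The authors deposited raw counts per gene and, for the same genes, FPKM values rounded by them; per the submitters' processing notes reads were aligned with STAR to mm9, and DESeq2 and bedtools 2.17.0 are also named. The counter, its annotation and its use of strand: not given in the sources used here. Libraries were made with a polyA TruSeq kit, per the labels' protocols.

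Counts were fitted with edgeR 4.0.16 under R 4.3.3, scaled by TMM after a filterByExpr filter by genotype (minimum count of 10), and tested by the robust quasi-likelihood F-test (two-sided) in 1 model of 15 libraries and 6 genotypes, which kept 17655 genes. Benjamini-Hochberg adjustment ran over all of them for each comparison, with a threshold of 0.05; "rose", "fell" and "called" refer to it. Levels are TMM-scaled CPM, the SE comes from the F statistic, and the limit behind a count of 0 is 3 counts per library, which covers counting error only. FPKM was used to compare genes and, with limma 3.58.1 on log2(FPKM + 0.1), as an alternative. A fit on simulated counts was checked before use. Pairs of libraries of a genotype were compared by chi-square over genes with at least 20 counts in the pair. The alternatives were RLE scaling, no count filter, DESeq2 1.42.0 (also without its mean filter, added after the data were seen), FPKM with pseudocounts 0.1 and 1, each library left out, a replicate block, the header range as a term or within it, Pitx1 as a covariate, GC and length offsets (also with the header range, added after the data were seen) and only the 2 groups. Column headers hold library numbers in 2 ranges, the first with WT 1 and 2, Dup-C, Dup-L and ∆Bor, the second with WT 3 and 4 and Dup-L∆Bor.

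The members and gene lists were chosen with earlier results of these data known. Named were all 15 Kir genes and, of the channel and partner lists, the 3 with the highest mean FPKM, up to 3 called genes with the largest change per list, and those called against WT in Dup-C, Dup-L∆Bor or ∆Bor; some genes this rule takes are not reported here. The 5 genes most like Kcnj2 were taken by root mean square difference.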

Additional observations from a re-analysis of the deposited data

Results flagged for a closer look

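Kcnj5, which encodes a G protein-gated channel, was at 0.557 CPM in Dup-L∆Bor R5, while the other 3 Dup-L∆Bor libraries were at 1.21 to 1.31 CPM. The gap to the nearest library was 0.871 of the range of the 4, above the critical value of Dixon's test for 4 samples. It was the 1 value found among 25 sets of 4 libraries of a Kir gene with at least 15 counts, and chance alone gives about 1 in 20.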

How the results depend on the processing

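The rise of Kcnj2 in Dup-L∆Bor over WT kept its direction and its call under all 28 alternatives. The other Kcnj2 values with a call kept their direction under every alternative run, but not always the call. In Dup-C over WT the value was 1.77 with the replicate block (adjusted p = 0.0638), 1.76 within the header range and 1.70 with GC and length offsets and the header range as a term. In ∆Bor het it was 0.73 with FPKM at a pseudocount of 0.1, with or without the filter, 0.61 at a pseudocount of 1, 0.63 with the replicate block (adjusted p = 0.443), 0.65 with the header range as a term, 0.63 within it, 0.66 with Pitx1, 0.47 with the offsets, 0.40 with both offsets and range, and 0.76 with the 2 groups alone; leaving out 1 library it ran from 0.47 to 1.02. In ∆Bor hom it was 1.40 with the range as a term, 1.35 within the range, 1.21 with the offsets, 1.13 with both and 1.504 with the 2 groups. Against Dup-L the Pitx1 covariate gave 0.64 for Dup-L∆Bor and 1.13 for Dup-C, and the latter ran from 1.29 to 1.70 with 1 library left out. The uncalled Dup-L value against WT was -0.02034 with the offsets and -0.0935 with offsets and range. The cause of these differences was not tested, beyond the fewer libraries in the fits within a range or of 2 groups.

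The count of Kcnj2 pairs past the threshold, 7, was 4 with the range as a term, 4 with Pitx1 and 3 with offsets and range. The 1 call among the other members became 2 with DESeq2, with the 2 groups alone and without Dup-L∆Bor R3, and 3 without WT 1. The count was 0 with the range as a term, Pitx1, the offsets or offsets and range. Leaving out either Dup-L library also changed it. The 68 calls of channel and partner genes over the 7 comparisons were 39 with the range as a term, 19 with Pitx1, 37 with the offsets and 17 with offsets and range, 25 without Dup-L 2 and 107 without WT 1. Counts over all genes moved by more than 1.5 times in 100 of 198 cases: Dup-L against WT called 5719 genes, and 0 with Pitx1 and 933 with the offsets, Dup-L∆Bor against WT 679, and 70 with the range as a term and 1634 with DESeq2, and Dup-C against WT 1, and 23 with DESeq2. DESeq2 gave Kcnj2 no adjusted p in Dup-C with its mean filter, and 1.243e-17 without it.

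The replicate numbers of WT, Dup-C, Dup-L and ∆Bor het showed no sign of pairing: deviations of same-numbered libraries correlated from -0.212 to 0.104. WT 1 and WT 2 also differed in Pitx1 (59.8 against 1.83 CPM), and such differences can hide a pairing, so this check could not exclude one. With the block, Kcnj2 was 0.29 in Dup-L over WT and 1.49 in Dup-C over Dup-L. No paired analysis was possible for Dup-L∆Bor and ∆Bor hom because their columns, numbered R2 to R5 and R3, could not be matched to the replicate numbers of the labels. GC content and length were found for 91.4% of tested genes. For Kcnj16, Kcnj6, Kcnj1, Kcnj10, Kcnj12 and Kcnj9, at no more than 14 counts in a library, depth limits the changes that could be detected.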

Other observations

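Outside the 7 comparisons, Kcnj9, a G protein-gated channel gene, was higher in Dup-L∆Bor than in Dup-C (log2 2.57, SE 0.85, edgeR adjusted p = 0.0421), a pair in which 22.6% of genes were called. Its counts were 14, 8, 7 and 8 in Dup-L∆Bor, 2 and 1 in Dup-C and 5, 7, 2 and 2 in WT, so this fold rests on 3 counts in Dup-C. The value was chosen after it was seen.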
